A study of Danio rerio with 8 samples.

Results

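The 10 genes described here are markers by which macrophages, and microglia, the macrophages of the brain, are recognised in zebrafish: mpeg1.1, mpeg1.2, marco, csf1ra, csf1rb, p2ry12, apoeb, lgals3bpb, lcp1 and havcr1. They were taken by gene symbol from a table of 35197 gene rows; each symbol matched 1 row, and all 10 were among the 21447 rows abundant enough to test. RNA was measured in 8 single whole larvae at 6 days post fertilization. Of these, 4 were homozygous for the osgep G177A allele (osgep G177A/G177A, zygotic homozygotes) and 4 were their wild-type siblings. The Osgep protein is the enzyme of KEOPS, a complex that places the threonylcarbamoyl modification on transfer RNA. The comparison asks how the transcripts of homozygous larvae differ from those of their siblings. Each library is 1 animal, so no cells were sorted, and fewer macrophages and less RNA per macrophage cannot be told apart in these values.

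Macrophages take up microbes, dying cells and debris. In zebrafish they arise in the embryo from myeloid progenitors, a part of them enters the brain and becomes microglia, and their survival and spread depend on the receptor tyrosine kinase Csf1r and its ligands. The genes fall into a pore-forming pair (mpeg1.1 and mpeg1.2), growth factor receptors (csf1ra and csf1rb), surface receptors for particles, dying cells and nucleotides (marco, havcr1 and p2ry12), secreted proteins (apoeb and lgals3bpb) and an actin-bundling protein of all white blood cells (lcp1). Several are active outside macrophages: csf1ra in the yellow pigment cells (xanthophores) and apoeb in lipid-handling tissue such as the yolk syncytial layer.

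Levels are given as CPM, counts scaled to a common library size, after trimmed-mean (TMM) scaling, which adjusts each library to the bulk of its genes. In homozygous larvae lcp1 was 3.83-fold lower and mpeg1.1 2.73-fold lower, and these 2 of the 10 genes passed the test (edgeR quasi-likelihood test, adjusted p below 0.05 over all rows). No gene of the 10 was called higher by edgeR, DESeq2 or limma voom. Of all tested rows 0.769% were called lower and 0.284% higher, 1.05% in all. DESeq2, a different count test, called 7 of the 10 lower (marco, csf1ra, p2ry12, lgals3bpb and havcr1 besides), where it called 5.2% of all rows lower. By edgeR the other 8 genes did not pass; 5 of these had an unadjusted p below 0.05, and with the called pair that makes 7 of 10 genes, all on the lower side, where 12.4% of all rows were lower at that level. In 5 of the 10 genes (mpeg1.1, p2ry12, lgals3bpb, lcp1 and havcr1) every homozygote lay below the lowest wild-type larva, which held for 4.95% of all rows. In 0 of the 10 was every homozygote above the highest wild-type larva, which held for 5.5% of all rows. The 10 genes were chosen with earlier results of these data known, so their counts beside these shares are not independent support. The log2 fold change was below 0 for 9 of the 10 genes, with a median of -1.21 beside 0.02 over all rows, and above 0 for mpeg1.2. With library totals in place of TMM factors the median over all rows moved to 0.40 and that of the 10 genes to -0.81, so that the 10 genes lay 1.23 below all rows with TMM and 1.21 below with totals.

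**Figure D1:**
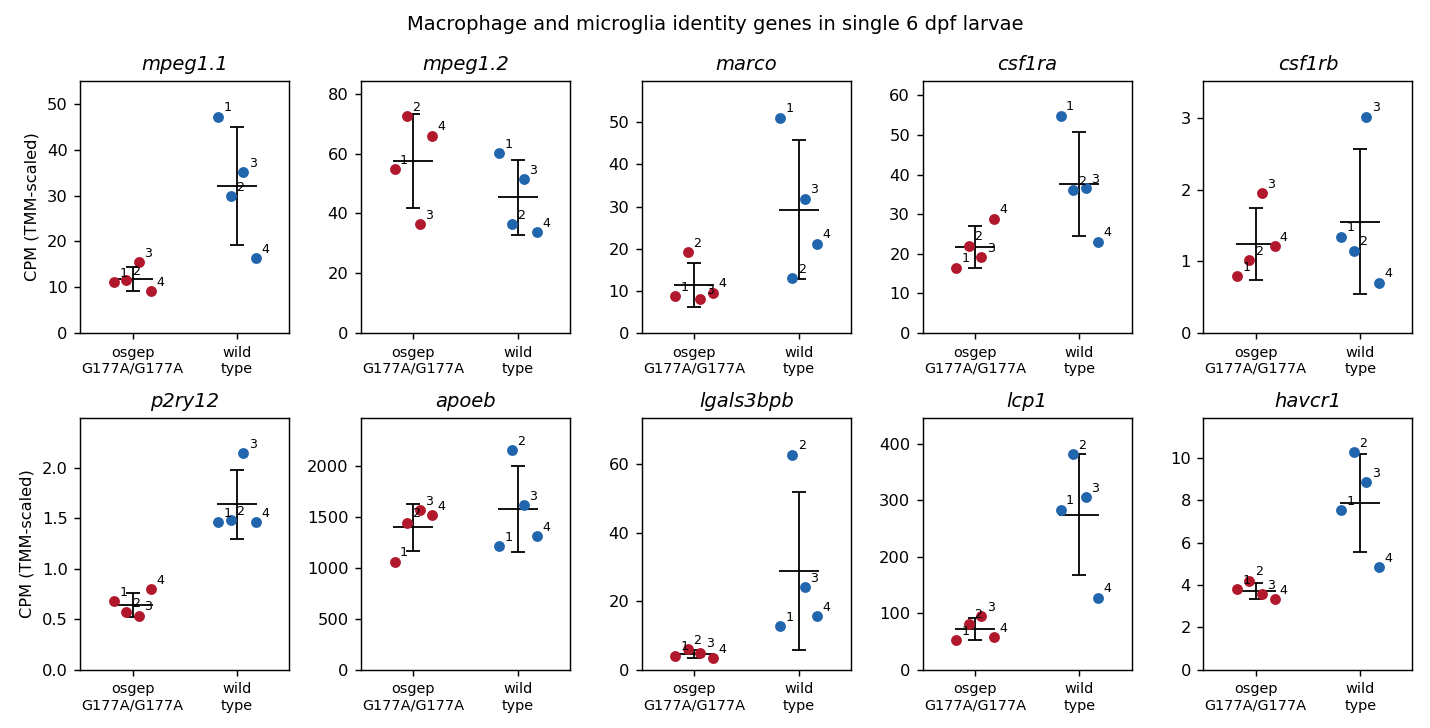
CPM (TMM-scaled, linear axes from 0) of each of the 10 genes in the 4 osgep G177A/G177A larvae and the 4 wild-type larvae; points are single larvae with their replicate number, the horizontal line is the mean and the bar is 1 SD. The groups are apart for mpeg1.1, p2ry12, lgals3bpb, lcp1 and havcr1, and wild-type larva 4 is the lowest wild-type larva for mpeg1.1, mpeg1.2, csf1ra, csf1rb, lcp1 and havcr1.

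The library totals ranged from 14398812 to 19052599 estimated counts, and the TMM factors from 0.732 to 1.23. osgep itself was 2.60, 3.68, 1.64 and 2.99 CPM in homozygotes 1 to 4, against 7.46, 11.5, 10.1 and 5.55 CPM in wild-type larvae 1 to 4 (log2 fold change -1.66, SE 0.29, edgeR adjusted p = 0.0187). The groups did not overlap, and the call was lost without homozygote 1 or 3 or wild-type 2 or 3 (highest adjusted p 0.0855), with library totals (0.0536) and with 1 surrogate variable (0.0756). Wild-type 1 and homozygote 2 stood apart from their groups in earlier results of these data. The number of the 10 genes called lower moved with the larvae: it was 0 without homozygote 1 or wild-type 3 (where 0.184% and 0.146% of all rows were called lower), 1 without homozygote 3 or 4 (0.226% and 0.351%), 2 without wild-type 2 (0.228%), 4 without wild-type 4 (1.19%) and 5 without homozygote 2 or wild-type 1 (3.46% and 5.77%). Without wild-type 1 and homozygote 2 together 5 of the 10 genes were called lower (mpeg1.1, marco, lgals3bpb, lcp1 and havcr1), where 10.5% of all rows were. Of 213 genes of the marker lists that were in the table, 2 had a count of 0 in every larva, cd8a of T cells and mlana of pigment cells.

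mpeg1.1 and mpeg1.2 encode pore-forming proteins of the perforin-2 type, which act on engulfed bacteria, and the mpeg1.1 promoter drives the usual macrophage reporters of zebrafish. mpeg1.1 had 11.04, 11.5, 15.5 and 9.07 CPM in homozygotes 1 to 4, against 47.2, 29.8, 35.2 and 16.3 CPM in wild-type larvae 1 to 4. The groups did not overlap, but homozygote 3 and wild-type 4 were close to each other. The gene was lower by the test (log2 fold change -1.45, SE 0.28, edgeR adjusted p = 0.0367). The call was kept without homozygote 2, wild-type 1 or wild-type 4 and lost without homozygote 1, 3 or 4 or wild-type 2 or 3 (highest adjusted p 0.122). It was also lost with library totals (0.0739), limma voom (0.0672) and 1 surrogate variable (0.0655).

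mpeg1.2 did not share this pattern. It had 54.8, 72.5, 36.5 and 66.1 CPM in homozygotes 1 to 4, against 60.2, 36.4, 51.5 and 33.7 CPM in wild-type larvae 1 to 4. The groups overlapped, with the highest value in homozygote 2 and the lowest in wild-type 4. Its log2 fold change of 0.34 did not pass (95% interval -0.17 to 0.84, edgeR adjusted p = 0.411). In a ratio of 2 genes within a larva the library scaling cancels, apart from an added prior count of 2 that matters most at low counts. The pair was therefore also compared in this way. The log2 ratio of mpeg1.2 over mpeg1.1 was 2.26 ± 0.72 in homozygotes and 0.56 ± 0.34 in wild-type larvae (SD, n = 4 each; exact two-sided permutation p = 0.0286, the smallest that 4 against 4 allows). The ratio was higher in 4 of 4 homozygotes than in any wild-type larva. It was 1 of 6 ratios compared, and after Benjamini-Hochberg adjustment over the 6 it did not pass (permutation adjusted p = 0.0857). With 4 against 4 larvae no ratio can pass this adjustment unless most of the 6 separate fully. The adjusted value therefore cannot decide whether this ratio differed. A further paralog, mpeg1.3, had 5 counts in all, spread over 3 larvae, and was not tested.

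**Figure D2:**
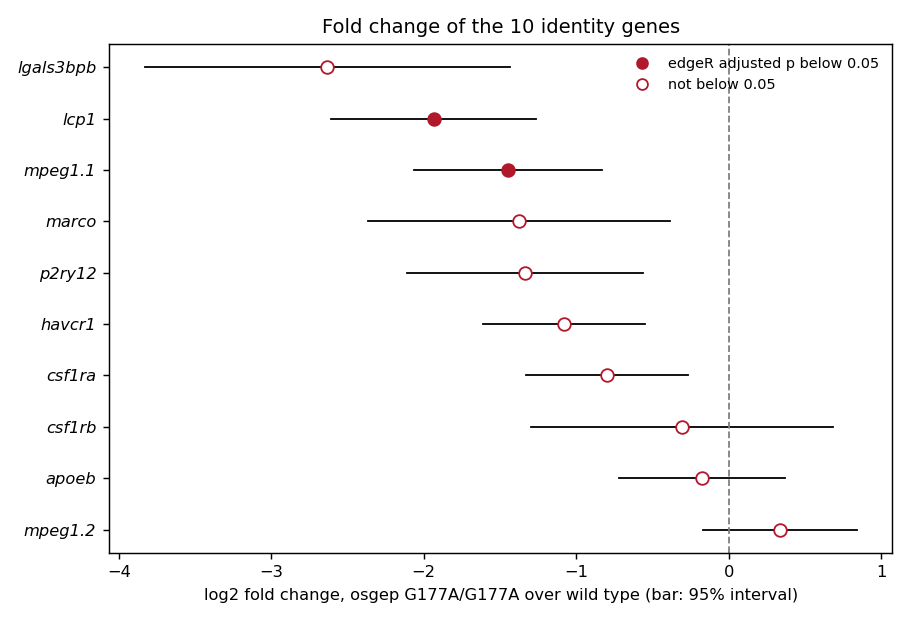
Log2 fold change of osgep G177A/G177A over wild-type larvae for the 10 genes, ordered from the most negative at the top, with 95% intervals from the edgeR fit; filled points passed at an adjusted p below 0.05. The filled points are lcp1 at -1.94 and mpeg1.1 at -1.45, lgals3bpb is the most negative at -2.63 with the widest interval, and the intervals of csf1rb, apoeb and mpeg1.2 include 0.

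csf1ra and csf1rb are the duplicated zebrafish genes of the receptor for Csf1 and Il34, and both contribute to microglia. csf1ra had 16.5, 22.04, 19.1 and 28.9 CPM in homozygotes 1 to 4, against 54.9, 36.0, 36.5 and 23.1 CPM in wild-type larvae 1 to 4. The overlap came from homozygote 4 and wild-type 4, since the other 3 homozygotes lay below every wild-type larva. With a log2 fold change of -0.80 (SE 0.25, 95% interval -1.33 to -0.26) the gene did not pass (edgeR adjusted p = 0.104). Its estimated counts had decimals in 7 of 8 larvae, as happens when reads are divided among rows.

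csf1rb was measured with far fewer counts, between 12 and 45 per larva. Its level was 0.793, 1.02, 1.95 and 1.22 CPM in homozygotes 1 to 4, against 1.35, 1.15, 3.02 and 0.701 CPM in wild-type larvae 1 to 4. The groups overlapped fully, and the larva numbered 3 was the highest of each group. The log2 fold change was -0.30 (95% interval -1.30 to 0.69, edgeR adjusted p = 0.729), and it was above 0 with library totals (0.10) and without wild-type 3 (0.23). Fold changes inside the 95% interval above are not excluded, and that interval covers the spread among larvae as well as counting error. An exact Poisson interval for its lowest count of 12 runs from 6.20 to 21.0. Poisson intervals cover counting error only. The log2 ratio of csf1rb over csf1ra was -4.04 ± 0.56 in homozygotes and -4.61 ± 0.73 in wild-type larvae (SD, n = 4 each; exact permutation p = 0.286, 0.343 adjusted over 6 ratios).

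The ligands of this receptor are measured in the same libraries. il34, which in zebrafish draws macrophages into the brain, was 4.61 ± 0.82 CPM in homozygotes and 7.79 ± 1.24 CPM in wild-type larvae (SD, n = 4 each), without overlap and without passing the test (log2 fold change -0.75, SE 0.22, edgeR adjusted p = 0.087). DESeq2 called il34 lower (adjusted p = 0.026), and limma voom did not (0.101). csf1a lay on the other side, at 3.48 ± 0.84 CPM in homozygotes and 1.99 ± 0.17 CPM in wild-type larvae (SD, n = 4 each), again without overlap and without passing (log2 fold change 0.80, SE 0.27, adjusted p = 0.118). DESeq2 and limma voom did not call csf1a (adjusted p = 0.0724 and 0.138). Without wild-type 1 and homozygote 2 it was called higher (0.95, edgeR adjusted p = 0.0493). This was the single call on the Csf1 list in that setting, where 1694 of all 21545 tested rows were called higher. csf1b was at 6.05 ± 1.19 CPM in homozygotes and 7.01 ± 1.39 CPM in wild-type larvae (SD, n = 4 each), with a log2 fold change of -0.21 that was 0.14 with library totals. Of 9 tested genes on a list of the receptors, their ligands and downstream signalling, 0 were called by edgeR in either direction, and the median log2 fold change was -0.64. At an unadjusted p below 0.05 they were 3 lower and 1 higher, DESeq2 called 3 lower, and limma voom called 0.

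Xanthophores also use csf1ra, so their other markers are given beside it. Of 13 xanthophore genes 0 were called by edgeR, DESeq2 or limma voom (1 lower at an unadjusted edgeR p below 0.05), 6 lay below 0 and 7 above, and the median log2 fold change was 0.02. Their summed level was 240.3 to 263.7 CPM in homozygotes and 211.2 to 259.4 CPM in wild-type larvae. The pterin synthesis gene gch2 was 45.3 ± 14.3 CPM in homozygotes and 32.7 ± 4.02 CPM in wild-type larvae (SD, n = 4 each). It was not called, and 0 of the 13 were higher at an unadjusted p below 0.05. The 1 marker that was lower at that level was another gene, so gch2 does not stand for the list. None of the 13 markers was at 0. How much of the csf1ra RNA came from each cell type was not tested.

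marco encodes a scavenger receptor with a collagen-like stalk by which macrophages bind bacteria and particles. It had 8.66, 19.1, 8.04 and 9.54 CPM in homozygotes 1 to 4, against 51.1, 13.1, 31.8 and 21.1 CPM in wild-type larvae 1 to 4. Homozygote 2 lay inside the wild-type range, above wild-type 2, and the other 3 homozygotes below it. The gene did not pass (log2 fold change -1.38, SE 0.44, 95% interval -2.36 to -0.39, edgeR adjusted p = 0.125). It was called without homozygote 2, a larva that stood far from the other homozygotes for this gene. Without any other single larva it was not called (highest edgeR adjusted p 0.302).

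havcr1 encodes a receptor of the TIM family, which binds phosphatidylserine on dying cells; it marks microglia in zebrafish, and in mammals it is best known from injured kidney tubules. Its level was 3.79, 4.19, 3.55 and 3.32 CPM in homozygotes 1 to 4, against 7.52, 10.3, 8.85 and 4.85 CPM in wild-type larvae 1 to 4. The homozygotes were tightly grouped, with a coefficient of variation of 10.1% against 29.3% in wild-type larvae, and the groups did not overlap. The log2 fold change of -1.08 (SE 0.25) narrowly missed the threshold (edgeR adjusted p = 0.0541). It was called without homozygote 2, wild-type 1 or wild-type 4, where 3.46%, 5.77% and 1.19% of all rows were called lower. Without any other single larva it was not called (highest edgeR adjusted p 0.180), nor with 1 surrogate variable (0.173). Of 11 genes of the pronephric tubule 0 were called by edgeR, DESeq2 or limma voom (1 lower and 3 higher at an unadjusted edgeR p below 0.05), with a median log2 fold change of 0.28 by edgeR and -0.04 by limma voom.

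p2ry12 encodes a purinergic receptor by which microglia sense nucleotides released from damaged cells. It had 0.679, 0.567, 0.533 and 0.795 CPM in homozygotes 1 to 4, against 1.46, 1.48, 2.14 and 1.46 CPM in wild-type larvae 1 to 4. The groups did not overlap, but the values rest on 51 counts over the 4 homozygotes and 101 over the 4 wild-type larvae. The exact Poisson interval of the lowest count, 10 in homozygote 2, runs from 4.795 to 18.4 counts, and that of the lowest wild-type count, 18 in wild-type 2, from 10.7 to 28.4 counts, both before scaling for library size. p2ry12 did not pass, with a log2 fold change of -1.33 (SE 0.36, 95% interval -2.11 to -0.56, edgeR adjusted p = 0.0753). The log2 ratio of p2ry12 over marco was -3.84 ± 0.66 in homozygotes and -3.91 ± 0.82 in wild-type larvae (SD, n = 4 each; exact permutation p = 0.886). The difference was 0.07 with a standard error of 0.53, so the 2 receptors could still differ in their change by an amount of that order.

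Scavenger receptors and genes for the uptake of dying cells were spread over both sides of 0. Of 12 tested scavenger receptor genes edgeR called 0 (4 lower and 3 higher at an unadjusted p below 0.05), DESeq2 called 1 lower and 1 higher and limma voom 0. Of the 12, 5 lay below 0 and 7 above, and the median log2 fold change was 0.18. marco had the most negative value. scarb2a, a lysosomal membrane receptor, was 40.9 ± 9.21 CPM in homozygotes and 27.5 ± 2.57 CPM in wild-type larvae (SD, n = 4 each), and colec12, a collectin of vascular endothelium, was 47.9 ± 9.44 CPM in homozygotes and 33.5 ± 5.67 CPM in wild-type larvae. Of 16 efferocytosis and phagocytosis genes edgeR called 0 (4 lower and 3 higher at an unadjusted p below 0.05), DESeq2 called 2 lower and limma voom 0. Of the 16, 6 lay below 0 and 10 above, with a median of 0.09. Besides havcr1 the smallest p-values were those of the small GTPase gene rac2 (log2 fold change -0.60, SE 0.17), the integrin gene itgav (0.61, SE 0.21) and the receptor kinase gene tyro3 (0.65, SE 0.24). Without wild-type 1 and homozygote 2, edgeR called 3 scavenger receptor genes lower and 2 higher, and 2 uptake genes lower and 3 higher. In that setting 10.5% of all rows were called lower, and 1694 of 21545 rows higher.

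apoeb encodes an apolipoprotein E that is abundant in zebrafish microglia and is also made by lipid-handling tissue. It had 1061, 1440, 1561 and 1513 CPM in homozygotes 1 to 4, against 1213, 2150, 1609 and 1311 CPM in wild-type larvae 1 to 4. The groups overlapped, with wild-type 2 the highest and homozygote 1 the lowest. The log2 fold change was -0.17 (95% interval -0.72 to 0.37, edgeR adjusted p = 0.719), and it was 0.25 with library totals and 0.02 without wild-type 2. The interval leaves out a fall as large as that of mpeg1.1 or lcp1. Relative to mpeg1.1, the log2 ratio of apoeb was 6.88 ± 0.36 in homozygotes and 5.67 ± 0.75 in wild-type larvae (SD, n = 4 each; exact permutation p = 0.0286), higher in 4 of 4 homozygotes than in any wild-type larva, and it did not pass after adjustment over 6 ratios (0.0857). The limit of that adjustment given for mpeg1.2 over mpeg1.1 holds here too.

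Genes of the yolk, liver and lipoprotein list are given beside apoeb. Of 13 tested edgeR called 0 (2 lower at an unadjusted p below 0.05), DESeq2 2 lower and limma voom 0, and their median log2 fold change was -0.23, or 0.18 with library totals. Their summed level without apoeb was 13382 to 20791 CPM in homozygotes and 15352 to 27478 CPM in wild-type larvae, with no marker at 0. The paralog apoea was 395.8 ± 63.4 CPM in homozygotes and 391.6 ± 65.9 CPM in wild-type larvae (SD, n = 4 each), a log2 fold change of 0.02 (SE 0.20). In the RefSeq gene order of GRCz12tu, a build other than that of the counts, 0 genes lie between apoeb and apoc1 and 0 between apoeb and apoa4b.2. These neighbours, picked after their values were seen, had log2 fold changes of -0.23 (SE 0.20) for apoc1 and -0.18 (SE 0.22) for apoa4b.2. The part of apoeb RNA that came from each tissue was not tested.

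lgals3bpb encodes a secreted galectin-3-binding protein that marks zebrafish microglia. It had 4.13, 6.01, 5.02 and 3.32 CPM in homozygotes 1 to 4, against 12.7, 62.8, 24.1 and 15.6 CPM in wild-type larvae 1 to 4. Every homozygote was below every wild-type larva, and wild-type 2 was 4.93 times wild-type 1. This spread within the wild-type group (coefficient of variation 80.4%) goes with the wide error of the most negative log2 fold change among the 10 genes, -2.63 (SE 0.52). It did not pass in the main edgeR fit (adjusted p = 0.0575) and was called without wild-type 2 (0.016), wild-type 1, wild-type 4 or homozygote 2. With all larvae edgeR called it with library totals (0.038), replicate number as a block (0.00797), a minimum count of 50 (0.0497) and a non-robust fit (0.0225). limma voom also called it (0.0471). It was not called with DESeq2 or upper-quartile scaling factors, without a filter or without the 100 most abundant rows. Nor was it called without homozygote 1, 3 or 4 or wild-type 3. Over all alternatives the adjusted p ran from 1.3e-07 with DESeq2 to 0.22 with 1 surrogate variable. Its paralog lgals3bpa was 5.59 ± 3.25 CPM in homozygotes and 10.99 ± 9.12 CPM in wild-type larvae (SD, n = 4 each), with overlapping groups (edgeR adjusted p = 0.482).

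lcp1 encodes L-plastin, an actin-bundling protein of all leukocytes, used to stain macrophages and neutrophils together. It fell to 52.7, 81.7, 94.5 and 57.8 CPM in homozygotes 1 to 4, against 283.0, 381.7, 305.2 and 127.6 CPM in wild-type larvae 1 to 4. Wild-type 4 was well below its siblings and still above each homozygote. This was a log2 fold change of -1.94 (SE 0.31, edgeR adjusted p = 0.0157). The call was lost without homozygote 1 (0.0551) or wild-type 3 (0.0615) and with 1 surrogate variable (0.115), and kept without any of the other 6 larvae.

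Some other genes common to leukocytes were lower as well. edgeR called 3 of 11 pan-leukocyte genes lower, lcp1 included, and 0 higher, with a median log2 fold change of -0.83. laptm5, for a lysosomal membrane protein of blood cells, was 6.01 ± 1.56 CPM in homozygotes and 21.6 ± 10.1 CPM in wild-type larvae, and arpc1b, for a subunit of the Arp2/3 actin complex, was 41.95 ± 11.7 CPM in homozygotes and 105.7 ± 27.1 CPM in wild-type larvae (SD, n = 4 each; edgeR adjusted p = 0.0227 and 0.0187). Both calls were lost without homozygote 1 or 4 or wild-type 3, that of laptm5 also without homozygote 3, that of arpc1b also without wild-type 2 or with library totals, and both with 1 surrogate variable (highest adjusted p with 1 larva left out 0.0875 and 0.0845). The count of 3 was 0 without homozygote 1 or wild-type 3, 1 without homozygote 4, 5 without wild-type 1 and 6 without wild-type 4 or with DESeq2. Of all rows 0.769% were called lower with all larvae. In the order of these settings the share was 0.184%, 0.146%, 0.351%, 5.77%, 1.19% and 5.2%. The summed level of the list without lcp1 was 270.9 to 424.8 CPM in homozygotes and 348.3 to 686.3 CPM in wild-type larvae, of which wild-type 4 was the lowest.

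Neutrophils also contain lcp1 RNA, and their markers are given beside it. On the neutrophil list 6 of 15 genes were called lower and 0 higher by edgeR, and 14 lay below 0. Without homozygote 1 or 4, or with 1 surrogate variable, the count was 3. Of all rows 0.769% were called lower with all larvae, and 0.184%, 0.351% and 0.518% in these settings, in that order. The granule peroxidase gene mpx lay between 15.8 and 21.8 CPM in the 4 homozygotes and between 62.4 and 106.7 CPM in the 4 wild-type larvae. Its log2 fold change was -2.27 (SE 0.19, edgeR adjusted p = 0.000298), and it was called lower in every alternative. The summed level of the list was 1239 to 2606 CPM in homozygotes and 1764 to 4527 CPM in wild-type larvae. Most of it was 1 gene, cpa5, which is also on the mast cell list and was not called. Without cpa5, left out after its values were seen, the sum was 240.2 to 350.4 CPM in homozygotes and 556.2 to 1062 CPM in wild-type larvae, without overlap, and none of its tested markers was at 0. The part of the lcp1 fall that came from each white cell type was not tested. The log2 ratio of mpeg1.1 over lcp1 was -2.58 ± 0.24 in homozygotes and -3.08 ± 0.45 in wild-type larvae (SD, n = 4 each; exact permutation p = 0.114, 0.171 adjusted over 6 ratios). That of mpeg1.1 over mpx was -0.60 ± 0.13 in homozygotes and -1.48 ± 0.53 in wild-type larvae (SD, n = 4 each; exact permutation p = 0.0571, 0.114 adjusted). Wild-type 1 lay within the range of the homozygotes in both ratios.

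**Figure D3:**
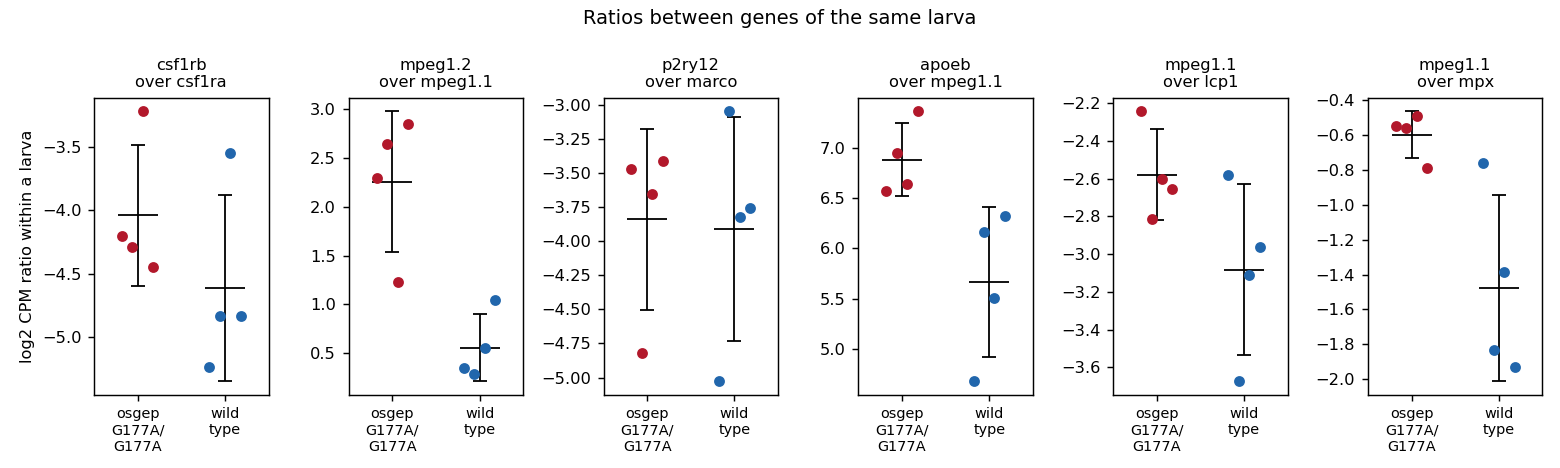
Log2 ratio of CPM (prior count 2) between 2 genes of the same larva, for 6 pairs, in osgep G177A/G177A and wild-type larvae; points are larvae, lines are means and bars are 1 SD, and each panel has its own axis that does not start at 0. The groups are apart for mpeg1.2 over mpeg1.1 and for apoeb over mpeg1.1, and they overlap for the other 4 pairs.

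The 10 genes varied from larva to larva within a genotype, and not all in the same way. Relative to the wild-type mean of each gene, the mean log2 level of the 10 genes was -1.19, -0.80, -0.94 and -1.005 in homozygotes 1 to 4, against 0.15, 0.13, 0.28 and -0.56 in wild-type larvae 1 to 4. On this log2 scale homozygotes 1, 2 and 4 were below the wild-type mean in 9 of the 10 genes and homozygote 3 in 8. Wild-type 4, the lowest of its group, was below that mean in all 10. Wild-type 1 had the highest values of all 8 larvae for mpeg1.1, marco and csf1ra, and wild-type 2 those for apoeb, lgals3bpb, lcp1 and havcr1. Between the 4 wild-type larvae the highest value was 1.47 times the lowest for p2ry12 and 4.93 times for lgals3bpb, with the other 8 genes between.

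**Figure D4:**
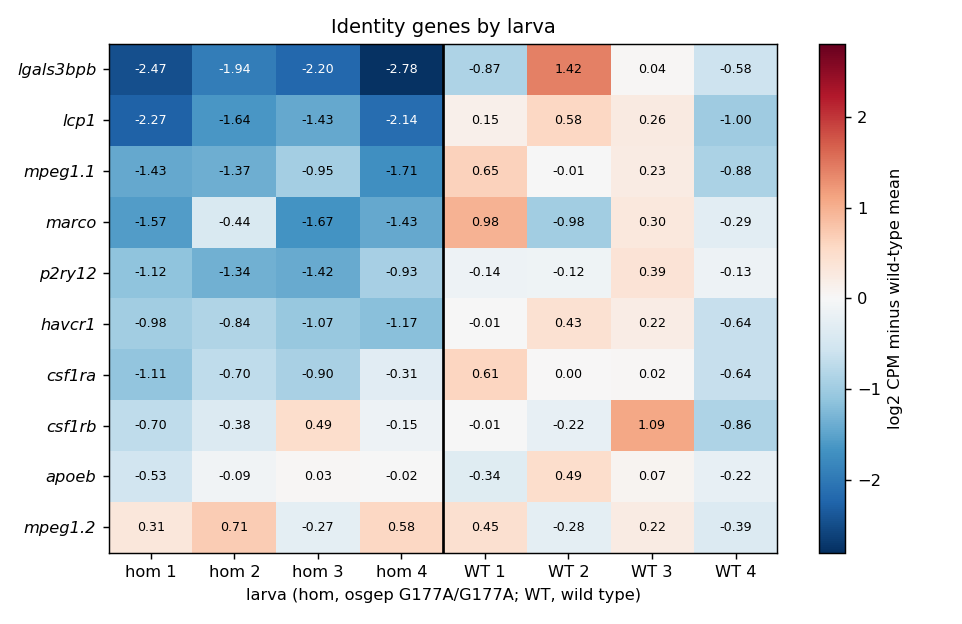
Log2 CPM of each gene minus its mean in wild-type larvae (prior count 2), by larva, with osgep G177A/G177A larvae (hom) left of wild-type larvae (WT); genes are ordered by fold change. The homozygote columns are blue from lgals3bpb down to csf1ra, while csf1rb, apoeb and mpeg1.2 are mixed, and the column of wild-type 4 is below 0 in all 10 genes.

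With the mean of each genotype removed, the Pearson correlation between pairs of the 10 genes over the 8 larvae ranged from -0.51 to 0.85 with a median of 0.27, and 36 of 45 pairs were above 0. These values describe 8 larvae that share libraries and scaling. lcp1 and havcr1 were the most alike (0.85), followed by apoeb and lgals3bpb (0.80) and mpeg1.2 and marco (0.79), while marco and lgals3bpb were the least alike (-0.51). Outside the 10 genes, all named rows with a mean of at least 2 CPM were searched for deviations close to the mean of the 10. Over 8 larvae, the highest r among so many rows can be high through the search alone. The closest rows were glipr1a (r = 0.97), abi3a (0.96), FO681288.1 (0.96), rgs18 (0.96) and si:ch211-213d14.2 (0.95). Of these, abi3a was lower in homozygotes at 4.18 CPM against 11.4 CPM in wild-type larvae (edgeR adjusted p = 0.0185, lost without homozygote 1 or wild-type 2 or 3, with a highest value of 0.0845, and with library totals, 0.0584, and 1 surrogate variable, 0.0524), and the other 4 were not called.

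Many further macrophage and microglia markers were lower. edgeR called 11 of 25 lower and 0 higher, 22 lay below 0, and the median log2 fold change was -1.54. Many were known to be low in these homozygotes when the list was drawn, so the count is not independent support. It was 6 without homozygote 1, 3 or 4 or wild-type 2, 7 without wild-type 3 or with library totals, and 17 with DESeq2. Of all rows 0.769% were called lower with all larvae. In the order of these settings the share was 0.184%, 0.226%, 0.351%, 0.228%, 0.146%, 0.163% and 5.2%. Among the 11 is csf3r, which is also on the neutrophil list. The log2 fold change was above 0 for mrc1a (0.29), timd4 (0.28) and slco2b1 (0.12), and it was -0.03 for slc7a7. The granulin gene grn1 was 25.1 ± 7.38 CPM in homozygotes and 231.6 ± 79.99 CPM in wild-type larvae. c1qa, for a chain of complement C1q, was 0.581 ± 0.17 CPM in homozygotes and 4.96 ± 1.81 CPM in wild-type larvae, and fcer1gl, for an Fc receptor gamma-like adaptor, 10.8 ± 2.26 CPM in homozygotes and 67.1 ± 27.5 CPM in wild-type larvae (SD, n = 4 each). These 3 genes and cd74b, for an invariant chain of antigen presentation, were called by edgeR whichever larva was left out. The same held for mpx, mmp13a and npsn of the neutrophil list and for the myeloid factor gene cebpb. With 1 surrogate variable mmp13a and npsn were not called (edgeR adjusted p = 0.0965 and 0.0919). c1qa was too low to be tested at a minimum count of 50. The summed level of the 25 genes was 383.5 to 515.2 CPM in homozygotes and 679.7 to 1153 CPM in wild-type larvae, without overlap.

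Transcription factors of the myeloid lineage were lower in part. edgeR called 3 of 12 lower and 0 higher, with a median log2 fold change of -0.72. The count was 1 without homozygote 1 or 4 or wild-type 2 or 3, 5 without wild-type 4, 6 with DESeq2 and 0 with library totals. Of all rows 0.769% were called lower with all larvae. In the order of these settings the share was 0.184%, 0.351%, 0.228%, 0.146%, 1.19%, 5.2% and 0.163%. irf8, which zebrafish need to form macrophages and microglia, was 11.7, 10.0, 8.83 and 16.6 CPM in homozygotes 1 to 4, against 66.97, 27.5, 28.1 and 27.6 CPM in wild-type larvae 1 to 4. Wild-type 1 was the highest of the 8 larvae, as it was for mpeg1.1, marco and csf1ra, and the groups did not overlap (log2 fold change -1.67, SE 0.32, edgeR adjusted p = 0.0398). mafbb, for a factor of macrophage maturation, fell by 1.54 on the log2 scale (SE 0.28) and cebpb, for a factor of myeloid and stress responses, by 1.43 (SE 0.23). The genes of PU.1, the master factor of myeloid cells, did not pass: spi1a was 11.1 ± 1.64 CPM in homozygotes and 25.1 ± 10.3 CPM in wild-type larvae (adjusted p = 0.0542), and spi1b 5.35 ± 0.92 CPM in homozygotes and 12.7 ± 5.75 CPM in wild-type larvae (0.0705; SD, n = 4 each). The call of irf8 was kept without wild-type 1 or 4 or homozygote 2 and lost without each of the other 5 larvae (highest adjusted p 0.131) and with library totals (0.0704). That of mafbb was lost without homozygote 1 or 4 or wild-type 2 or 3, with library totals and with 1 surrogate variable (0.164), and that of cebpb with library totals (0.0538).

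**Figure D5:**
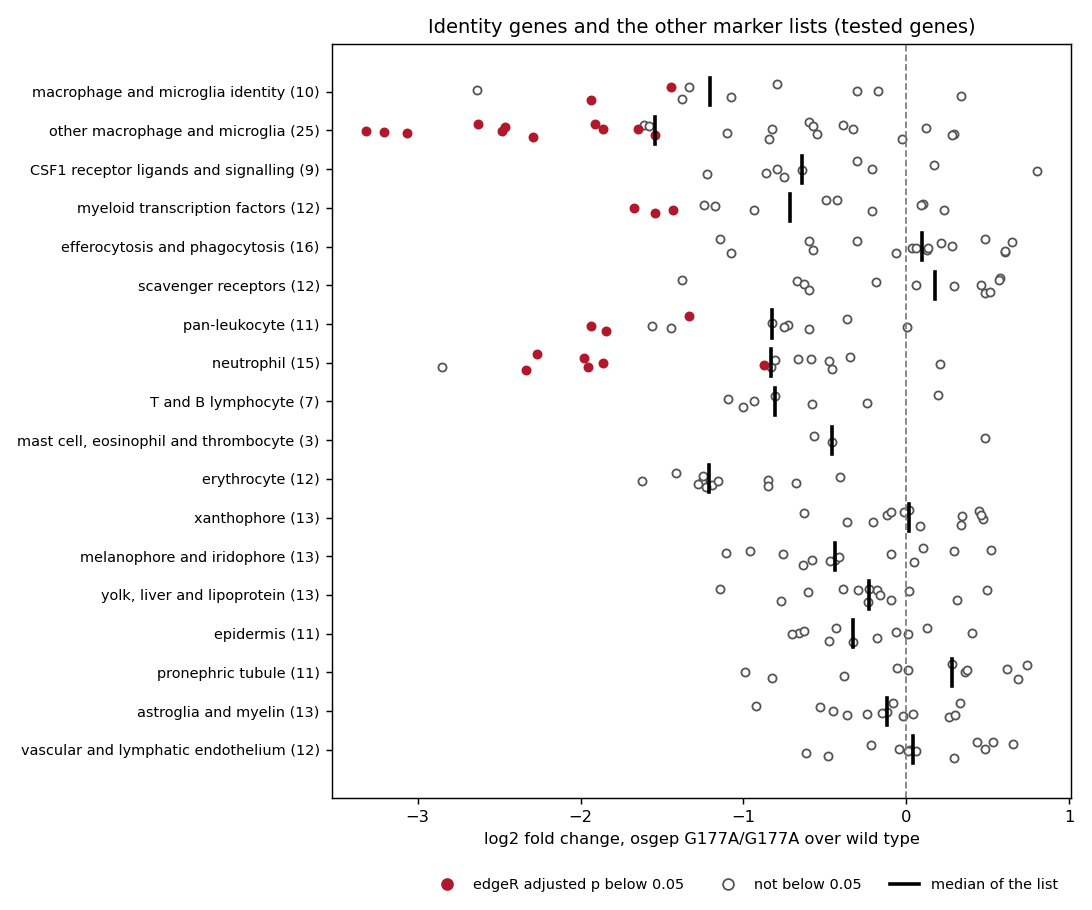
Log2 fold change of osgep G177A/G177A over wild-type larvae for every tested gene of the identity genes and 17 other marker lists (number of tested genes in brackets); filled points passed edgeR at an adjusted p below 0.05, and black bars are list medians. Filled points occur in the identity, other macrophage, myeloid factor, pan-leukocyte and neutrophil lists, and the erythrocyte list lies below 0 throughout without a filled point.

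Besides the lists of macrophages, Csf1 signalling, myeloid factors, leukocytes in general and neutrophils there were 12 others. Of their 136 tested entries edgeR called 0 with all larvae. At an unadjusted p below 0.05 they were 38 lower and 14 higher (all rows: 12.4% lower, 2110 of 21447 higher). DESeq2 called 15 lower and 4 higher (all rows: 5.2% lower, 578 of 21447 higher), and limma voom 0. The entries include marco and havcr1 of the 10 genes, which DESeq2 called lower. So did edgeR without wild-type 1 and homozygote 2. Some genes are on several of the 12 lists. The erythrocyte list had the most negative median among them: 12 of 12 genes lay below 0, with a median log2 fold change of -1.21, close to that of the 10 identity genes, and a summed level of 233.8 to 880.0 CPM in homozygotes and 779.0 to 1684 CPM in wild-type larvae. At an unadjusted edgeR p below 0.05, 8 of the 12 erythrocyte genes were lower, and DESeq2 called 3 lower. Without homozygote 2 alone edgeR called 8 of the 12 lower, where 3.46% of all rows were. None of the erythrocyte markers was at 0, and the part of this list in the identity gene results was not tested. The embryonic globin gene hbae1.1 was 113.9 ± 58.1 CPM in homozygotes and 303.6 ± 115.3 CPM in wild-type larvae (SD, n = 4 each; edgeR adjusted p = 0.0808). The T and B lymphocyte list, with 7 tested genes, had a median log2 fold change of -0.81, close to the -0.83 of the neutrophil list. Another 7 of its 14 genes in the table were too low to test, among them cd4-1, cd8a, cd8b, cd79a and cd79b. Its gene ikzf1 is also on the myeloid factor list. Of the 7 tested genes, edgeR called 0, DESeq2 called 3 lower, and 4 were lower at an unadjusted edgeR p below 0.05. Their summed level was 15.6 to 21.5 CPM in homozygotes and 24.6 to 28.7 CPM in wild-type larvae, without overlap. The absence of calls in the 12 lists depended on the larvae. edgeR called 15 entries lower and 4 higher of 138 without homozygote 2 (all rows: 3.46% lower, 404 of 21820 higher). It called 13 lower and 4 higher of 139 without wild-type 1 (all rows: 5.77% lower, 871 of 21819 higher). The calls were 3 lower and 1 higher of 137 without wild-type 4 (all rows: 1.19% lower, 46 of 21832 higher). Without wild-type 1 and homozygote 2 together edgeR called 33 lower and 9 higher of 138 (all rows: 10.5% lower, 1694 of 21545 higher). Among these were 8 of 12 erythrocyte and 5 of 11 epidermis genes, all lower. The medians of the astroglia and myelin, vascular and epidermis lists were -0.12, 0.04 and -0.33, or 0.27, 0.40 and 0.07 with library totals.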

How the data were processed

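The deposited table held estimated counts per gene, which the authors made with Trimmomatic, STAR 2.7 and RSEM on danRer11, per the submitters' processing notes; settings, annotation and strand setting are not given in the sources used here. Per the labels' protocols, libraries were rRNA-depleted and random-primed, from 1 larva each. RSEM divides reads that match several genes, so values of paralogs are uncertain, and reads of overlapping genes may be counted together. Counts were rounded, filtered with filterByExpr (minimum count 10, 21447 of 35197 rows left), TMM-scaled and tested under R 4.3.3 by the robust quasi-likelihood test of edgeR 4.0.16 with genotype alone in the model and Benjamini-Hochberg adjustment over all rows at 0.05. Each standard error is the log2 fold change divided by the root of F. The 10 genes and all lists were chosen with earlier results of these data known; of 232 list names 213 were in the table and 198 were tested. From each list up to 4 genes with the smallest p were open to naming, with paralogs, ligands and factors fixed beforehand. Alternatives used DESeq2 1.42.0, limma 3.58.1 and sva 3.50.0. Levels of different genes are not compared, since CPM is not per length. Larvae are separate animals, so p-values reflect animal-to-animal spread. Within each genotype all library pairs differed beyond counting noise (lowest chi-square per degree of freedom 19.4). On simulated data with 21447 genes, 200 of them changed, 82% of 4-fold and 39% of 2-fold changes were recovered, with 9 false calls among 130. Counts were drawn independently for each larva with the fitted spread of each gene, and no larva was made to stand apart. The calls in the real data moved widely with single larvae, so these rates may not hold for them.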

Additional observations from a re-analysis of the deposited data

Results flagged for a closer look

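Each gene was checked in each group for a larva far from its 3 siblings, in 20 groups of 4 larvae, and chance alone gives about 1 such larva. Dixon's criterion was passed by 2 larvae. For marco, homozygote 2 stood at 19.1 CPM, with the next homozygote at 9.54 CPM. For p2ry12, wild-type 3 stood at 2.14 CPM, with the next wild-type larva at 1.48 CPM.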

How the results depend on the processing

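The number of the 10 genes called lower was 2 (where 0.769% of all rows were lower). It moved to 7 with DESeq2 (5.2%), to 5 without wild-type 1 and homozygote 2 together (10.5%) and to 0 with 1 surrogate variable (0.518%). With 1 larva left out it ranged from 0 to 5, and the share of all rows called lower from 0.146% to 5.77%. In none of the 20 alternatives was a gene of the 10 called higher. The number of all rows called was 226, and it was 123 with library totals, 349 without a filter, 1693 with DESeq2, 136 with limma voom, 129 with 1 surrogate variable and 3952 without wild-type 1 and homozygote 2. With 1 larva left out it ranged from 38 to 2130. Signs turned for genes that were not called: csf1rb to 0.10 with library totals and 0.23 without wild-type 3 (range -0.60 to 0.23 with 1 larva left out), apoeb to 0.25 with library totals and 0.016 without wild-type 2 (range -0.25 to 0.016), csf1b to 0.14 with library totals, and apoea to -0.13 without wild-type 1 and homozygote 2, -0.066 without homozygote 2, -0.055 without wild-type 1 and -0.0097 without wild-type 3. The difference in the ratio of p2ry12 over marco was -0.020 with a prior count of 0.5. The cause of these shifts was not tested. The deviations of same-numbered larvae had correlations between -0.107 and 0.052, and those of differently numbered larvae between -0.264 and 0.222. This check cannot exclude that larvae of the same number shared a clutch or day, which the labels do not give. With replicate number as a block 3 of the 10 genes were called, all lower, where 1.22% of all rows were called lower. In either direction 333 rows were called. The within-number permutation of the ratios cannot go below p = 0.125. p2ry12, csf1rb, c1qa and csf1a were not tested at a minimum count of 50, nor apoeb without the 100 most abundant rows.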
